A study of Bos taurus with 8 samples.

Results

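The miR-15 and miR-16 seed family consists of short regulatory RNAs that share the seed, the stretch near the 5′ end of a mature miRNA that pairs with its target mRNAs. It was examined here in the blood of 4 healthy lactating Holstein cows. The members were chosen by name as the bovine (bta) miRNAs of this family: bta-miR-15a, bta-miR-15b, bta-miR-16a, bta-miR-16b, bta-miR-195, bta-miR-424-5p and bta-miR-497, written without the prefix from here on. All 7 were among the 534 bovine miRNAs listed in the tables, of which 445 had reads in any library. The family was chosen with the difference between sera and exosomes already known, so its values in that comparison are given as a description, and the fitted values come from a test over all miRNAs. The shared seed was taken from the miRNA names and was not checked against sequence here.

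From each cow, 1 small RNA library was made from serum (sera, n = 4) and 1 from exosomes isolated out of the same serum (exosomes, n = 4). Exosomes are small membrane vesicles that cells release, and serum holds them together with miRNAs bound to proteins and lipoproteins. The exosomes were isolated with a precipitation kit and their RNA was extracted with an Invitrogen kit, whereas the RNA of the sera was extracted with a Norgen kit from whole serum, exosomes included. The sample type and the extraction therefore cannot be told apart. No treatment was compared.

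Members of this family restrain cell division and survival by repressing mRNAs such as those of the D and E cyclins, CDK6 and the anti-apoptotic protein BCL2. They are made from paired hairpins, so that a miR-15 and a miR-16 are cut from 1 primary transcript. In the RefSeq annotation of the bovine assembly ARS-UCD2.0, the nearest miRNA gene to MIR15A was MIR16A, the nearest to MIR15B was MIR16B, the nearest to MIR195 was MIR497, and the nearest to MIR424 was MIR503. MiR-16 is abundant in blood cells and is often taken as a reference miRNA in serum studies.

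The values are in RPM, that is, the share that a miRNA takes of the miRNA reads of its library, scaled to the same total in each. The sera libraries held 264769 to 590162 miRNA reads and the exosome libraries 60682 to 157710. In sera, 3 reads made 5.08 to 11.3 RPM, and in exosomes 19.0 to 49.4 RPM. Intervals and limits from read numbers cover counting error only and leave out the spread between cows. PCR copies of a molecule are counted as separate reads, so even the counting error can be understated. RPM gives no amount per volume of serum, and a smaller release by some cells cannot be told apart from fewer such cells.

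The family took 3.61% ± 0.526 (SD, n = 4) of the miRNA reads in sera and 2.26% ± 0.266 (SD, n = 4) in exosomes. For cows 1 to 4 the share was 2.96%, 3.92%, 4.14% and 3.42% in sera and 1.88%, 2.32%, 2.34% and 2.50% in exosomes. The lowest serum lay above the highest exosome library, and the share was higher in sera in 4 of 4 cows. The value of miR-486, the most abundant miRNA of both sample types and a red cell miRNA, moved the other way, with means of 158802 ± 31862 RPM for sera and 267558 ± 72036 RPM for exosomes (SD, n = 4), though the sample types overlapped. With miR-486 left out of the total, the family took 4.30% ± 0.670 in sera (3.44% to 4.90%) and 3.13% ± 0.589 in exosomes (2.28% to 3.57%), and the sample types overlapped. With TMM scaling, a normalization that sets the bulk of the miRNAs level between libraries, the shares were 3.37% ± 0.529 and 2.47% ± 0.597 (SD, n = 4) and overlapped as well.

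**Figure D1:**
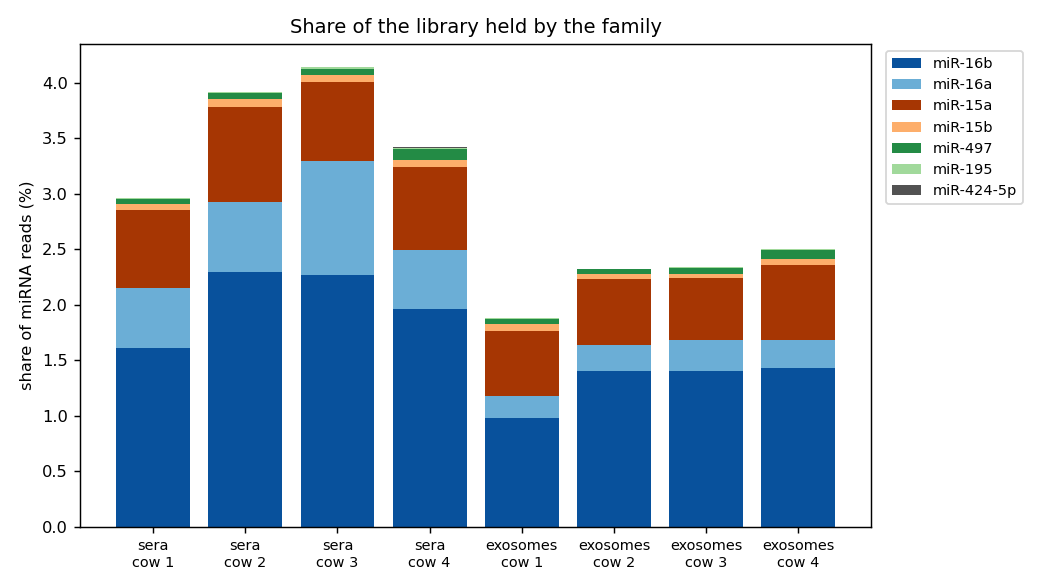
Stacked bars give, for each of the 8 libraries, the percentage of its miRNA reads taken by each family member. The 4 sera bars reach 2.96% to 4.14% and the 4 exosome bars 1.88% to 2.50%, with miR-16b the largest part of each bar and miR-16a a smaller part of the exosome bars.

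Within the family, miR-16b, miR-15a and miR-16a carried nearly all reads. The miR-15 and miR-16 members together made up 97.8% ± 0.828 of the family in sera and 97.3% ± 0.732 in exosomes (SD, n = 4). MiR-16b alone was 56.2% ± 2.06 of it in sera and 57.3% ± 3.87 in exosomes, which differed by less than the spread between cows. MiR-16a made up 18.7% ± 4.18 of the family in sera and 10.8% ± 0.921 in exosomes, without overlap. MiR-15a made up 21.1% ± 2.80 in sera and 26.8% ± 3.04 in exosomes, again without overlap and in the other direction. The shares of the members add up to the whole family, so a lower share of miR-16a raises the combined share of the others. The share of miR-15a is therefore not independent of that of miR-16a. In RPM, miR-15a was higher in sera in 4 of 4 cows, with means of 7519 in sera and 6017 in exosomes. The remaining members were small, with 1.77% and 2.34% for miR-15b, 1.82% and 2.37% for miR-497, 0.344% and 0.315% for miR-195, and 0.0476% and 0.0346% for miR-424-5p in sera and exosomes.

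By mean RPM the order in sera was miR-16b, miR-15a, miR-16a, miR-497, miR-15b, miR-195 and miR-424-5p, and it was the same in exosomes. These are shares of reads of mature miRNAs of nearly equal length, not corrected for how readily each miRNA is ligated during library preparation. In sera the ranges of miR-15a and miR-16a overlapped, while in exosomes every value of miR-15a was above every value of miR-16a. The ranges of miR-497 and miR-15b overlapped in both sample types, so their order is not settled by these cows. Among all listed miRNAs, miR-16b was ranked 13 in sera and 16 in exosomes, miR-15a 27 and 28, and miR-16a 30 and 46.

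MiR-16a had the largest fitted difference of the 5 members that reached 10 reads in every library. For cows 1 to 4 the sera had 5397, 6281, 10235 and 5383 RPM. In their exosomes it had 2043, 2316, 2811 and 2562 RPM. The lowest serum was above the highest exosome library, and cow 3 had the highest value in both sample types. The means were 6824 ± 2313 RPM and 2433 ± 329 RPM (SD, n = 4), and within cows the serum held 2.64, 2.71, 3.64 and 2.10 times the value of the exosomes.

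The comparison was fitted with limma on log2(RPM + 1) over the 365 miRNAs with more than 1 RPM in at least 2 libraries of a sample type. A miRNA was called when its log2 fold change (FC) was beyond -1 or 1 with a Benjamini-Hochberg false discovery rate (FDR) below 0.05. MiR-16a had a log2 FC of 1.44 (standard error 0.23, 95% interval 0.96 to 1.93) and an FDR of 0.00139 by limma. It was the 1 member called higher in sera, where 3.01% of all tested miRNAs were called, and 0 members were called higher in exosomes, where 1.37% were. By the limit on FDR alone it was again the 1 member higher in sera, where 5.21% of the miRNAs were. At an unadjusted p under 0.05, limma gave 2 members, both higher in sera, where 22.7% of all tested miRNAs were. On the reads recovered from the RPM, edgeR with TMM gave miR-16a a log2 FC of 1.23 and called it as the 1 member, beside 1.64% of all miRNAs higher in sera (2.74% by FDR alone) and 2.19% higher in exosomes. With the cow as a replicate block, which compares the libraries of the same cow, miR-16a was again the 1 member called by both tools. The share of all miRNAs called was then 7.95% in sera and 1.64% in exosomes by limma, and 3.56% in sera and 3.56% in exosomes by edgeR. The typical log2 FC was above 0, with a median of 0.31 over the 128 miRNAs that had 10 reads or more in each library (well-read miRNAs), and miR-16a stood 1.13 above it.

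**Figure D2:**
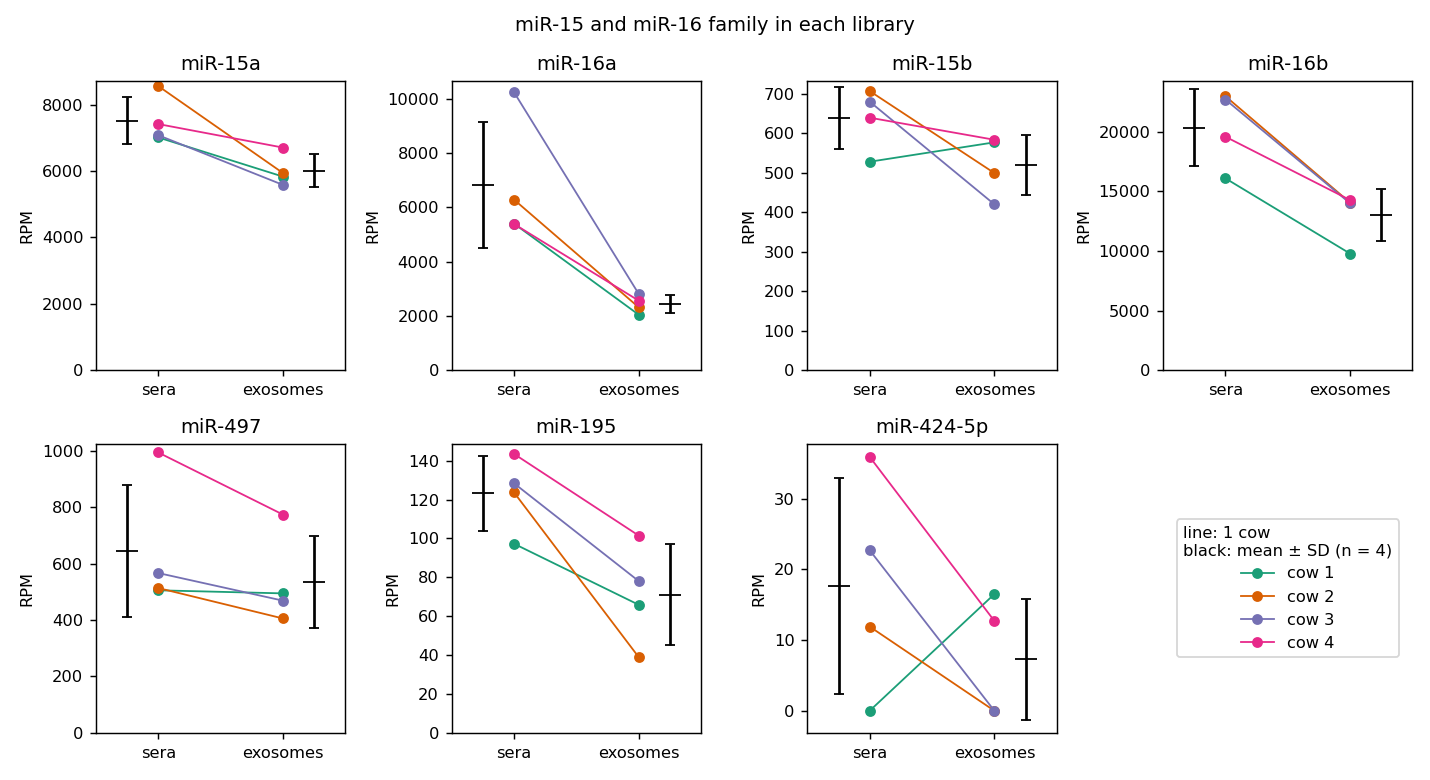
Each panel plots the RPM of 1 family member in the sera and the exosomes of the 4 cows, with a line joining the libraries of a cow and black bars for the mean ± SD (n = 4). The sample types do not overlap for miR-15a, miR-16a and miR-16b, and the line of cow 1 runs upward for miR-15b and miR-424-5p.

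MiR-16b, the product of the other miR-15 and miR-16 locus, was the most abundant member. In sera, by cow from 1 to 4, it had 16083, 22967, 22688 and 19572 RPM. In the exosomes it had 9772, 14043, 13989 and 14260.4 RPM. The sample types did not overlap, and cow 1 was the lowest in both. The means were 20327 ± 3221 RPM and 13016 ± 2166 RPM (SD, n = 4), with 1.65, 1.64, 1.62 and 1.37 times as much in the serum of each cow. By limma the log2 FC was 0.65 (standard error 0.21, 95% interval 0.20 to 1.09) with an FDR of 0.0882, so miR-16b was not called. With the replicate block the limma FDR was 3.97e-07 and the edgeR FDR 0.00178. The log2 FC stayed under the limit in both, at 0.65 and 0.44. At an FDR under 0.05 with the block, 3 members (miR-15a, miR-16a and miR-16b) were higher in sera by limma, as were 23% of all miRNAs, and 2 members (miR-16a and miR-16b) by edgeR, as were 15.1%. Such FDR values from 4 cows lean on the variance shared over all miRNAs. With the block, limma gave miR-15b and miR-497, which are of like abundance, the same standard error of 0.172. Their own differences within cows were not equally spread. The limma FDR values with the block therefore say little about the spread of a single member.

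The mature sequences of miR-16a and miR-16b are near-identical, so that a trimmed or misread end can move a read from 1 name to the other, and their separate values are uncertain to that extent. Their sum was 27152 ± 4990 RPM for sera and 15449 ± 2432 RPM for exosomes (SD, n = 4), without overlap. The summed log2 FC was 0.81 (standard error 0.21, 95% interval 0.35 to 1.27) with a limma FDR of 0.0322, which is past the limit on FDR and not past the limit on FC. With the sum as 1 feature, 0 members were called by limma.

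MiR-15a, which shares its locus with miR-16a, had 7014, 8562, 7082 and 7417 RPM in sera, again by cow. The exosomes had 5834, 5941, 5584 and 6708.5 RPM. The sample types did not overlap, although the lowest serum and the highest exosome library lay close together. The means were 7519 ± 718 RPM and 6017 ± 485 RPM (SD, n = 4), and the serum held 1.20, 1.44, 1.27 and 1.11 times as much within cows. By limma the log2 FC was 0.32 (standard error 0.17, 95% interval -0.05 to 0.69) with an FDR of 0.256. With the replicate block the limma FDR was 0.0231 at the same log2 FC. The log2 FC lay 0.01 above the median of the 128 well-read miRNAs, so that on this scale miR-15a differed between sera and exosomes about as much as the typical well-read miRNA.

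MiR-15b, from the locus of miR-16b, had 528, 707, 679.8 and 639 RPM in sera. The exosomes had 577, 499, 419.8 and 583 RPM. The sample types overlapped, since the serum of cow 1 was below its exosomes, at 0.915 times their value. The other cows had 1.42, 1.62 and 1.10 times as much in serum. The means were 638 ± 78.8 RPM and 519.7 ± 76.8 RPM (SD, n = 4), with a log2 FC of 0.30 (standard error 0.22, 95% interval -0.18 to 0.78) and a limma FDR of 0.410. Without both libraries of cow 3 the log2 FC was 0.17.

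MiR-497 and miR-195 are cut from a shared primary transcript and are known for holding back the cell cycle in muscle and heart cells. MiR-497 had 505, 513, 566.5 and 994 RPM in sera and 494, 405.5, 469 and 774 RPM in their exosomes. Cow 4 was the highest in both sample types, and the sample types overlapped. The means were 645 ± 234 RPM and 536 ± 163 RPM (SD, n = 4). The serum held 1.02, 1.27, 1.21 and 1.28 times as much within cows, and the log2 FC was 0.25 (standard error 0.29, 95% interval -0.36 to 0.87, limma FDR 0.647). Leaving out a single library of cow 4 moved that value, to 0.02 without its serum and 0.44 without its exosomes. Without both libraries of cow 4 it was 0.21.

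MiR-195 was less abundant, with sera at 97.3, 124, 128 and 143.5 RPM and exosomes at 65.9, 39, 78.1 and 101.5 RPM. These values rested on 26 to 73 reads in each serum and 4 to 16 reads in each exosome library. The sample types overlapped by the serum of cow 1 and the exosomes of cow 4, and in each cow the serum was higher, by 1.48, 3.17, 1.64 and 1.41 times. The log2 FC was 0.85 (standard error 0.44, 95% interval -0.09 to 1.80) with a limma FDR of 0.241. Over the pooled reads, 197 in sera and 33 in exosomes, the ratio of the shares was 1.71, with a 95% counting interval of 1.18 to 2.55 that leaves out the spread between cows.

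MiR-424-5p, whose hairpin lies beside that of miR-503 and which is known from endothelial and myeloid cells, was near the limit of detection. It had 0, 11.9, 22.7 and 35.9 RPM in sera, from 0, 7, 6 and 16 reads. In exosomes it had 16.5, 0, 0 and 12.7 RPM, from 1, 0, 0 and 2 reads. All 4 exosome values rested on fewer than 3 reads, the number taken here as the floor. The pooled 29 and 3 reads gave a ratio of 2.77 with a 95% counting interval of 0.858 to 14.2, so that a difference was not detectable at this depth. The log2 FC of 1.39 by limma had a standard error of 1.35 and an FDR of 0.579, and depended on the pseudocount, with 2.21 at a pseudocount of 0.1 and 0.61 at 10.

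The other products of the miR-424 and miR-503 locus were as rare. MiR-424-3p, the other arm of the same hairpin, had 0, 3, 2 and 7 reads in sera and 0 in every exosome library. At the level of the sera, 3.44 reads would have been seen over the 4 exosome libraries, close to the 3 reads that a count of 0 allows. Its limma FDR was 0.120. MiR-503-3p had 3 reads in sera and 1 in exosomes, and miR-503-5p had 1 read in all 8 libraries.

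**Figure D3:**
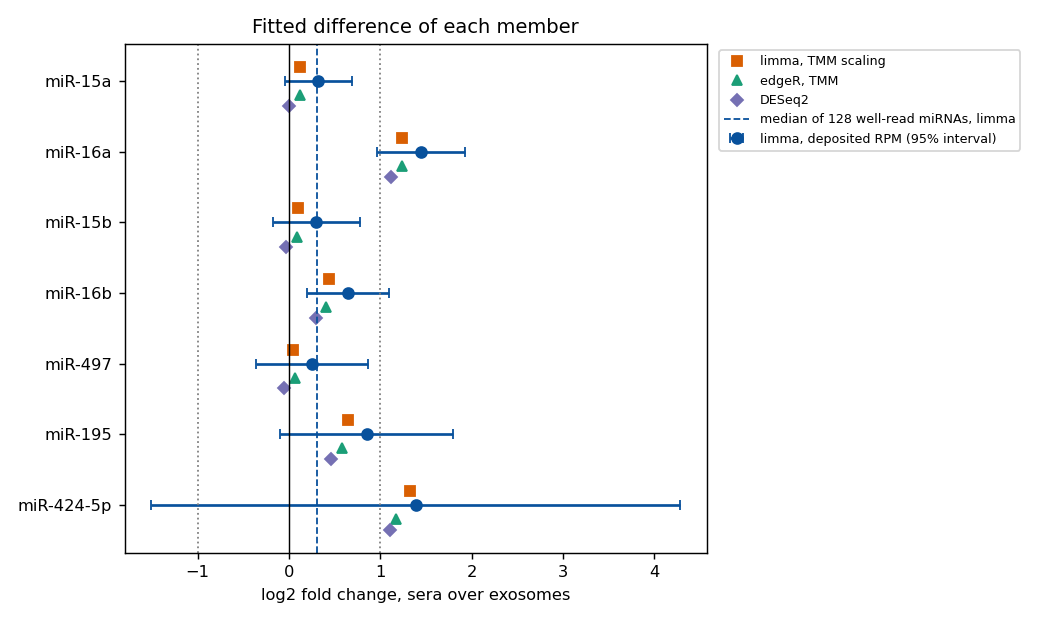
Points give the log2 FC of sera over exosomes for each member by limma on the deposited RPM (bars, 95% interval), limma with TMM scaling, edgeR and DESeq2. Dotted lines mark the limits of -1 and 1. The dashed line marks the median of the 128 well-read miRNAs by limma on the deposited RPM. That median was 0.11 by limma with TMM scaling and by edgeR with TMM, and -0.02 by DESeq2. MiR-16a lies past 1 by every tool, from 1.12 to 1.44, and the interval of miR-424-5p spans -1.51 to 4.29.

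Across the family, the log2 FC was positive for all 7 members by limma and slightly below 0 for miR-15a, miR-15b and miR-497 by DESeq2. The limma median of the 7 members was 0.65, against 0.57 over the 365 tested miRNAs. For the 5 members among the 128 well-read miRNAs the median was 0.32, against 0.31 over all 128. The sample types did not overlap for 3 members, miR-15a, miR-16a and miR-16b, each higher in sera, and 0 members were higher in exosomes without overlap. Of all tested miRNAs 11.8% were higher in sera without overlap, and of the 128 well-read miRNAs 21.9% were, against 2.47% and 4.69% higher in exosomes. In 4 of 4 cows 5 members were higher in sera, and so were 30.7% of all tested and 51.6% of the well-read miRNAs. The scaling moved every member, as the median of the well-read miRNAs was 0.31 with RPM, 0.11 by edgeR with TMM and -0.02 by DESeq2. The log2 FC of miR-16a stayed over 1, and that of miR-16b between 0.29 and 0.75, in all alternatives computed that kept these miRNAs apart.

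**Figure D4:**
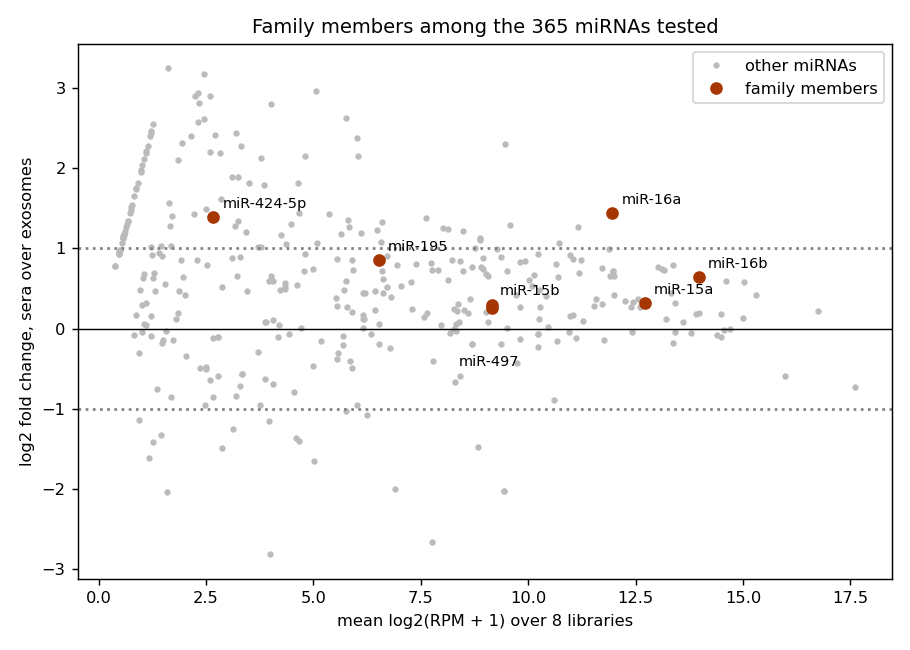
Each point is 1 of the 365 tested miRNAs, with its mean log2(RPM + 1) over the 8 libraries on the x axis and its log2 FC of sera over exosomes by limma on the y axis, and family members are marked. MiR-16a at 1.44 lies above the limit of 1, whereas miR-15a, miR-15b and miR-497 at 0.25 to 0.32 lie within the bulk of the well-read miRNAs.

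Ratios within a library do not depend on its scaling, and they showed how unevenly the partners of a locus were represented. The ratio of miR-15a to miR-16a was 1.30, 1.36, 0.692 and 1.38 by cow in sera. In exosomes it was 2.85, 2.57, 1.99 and 2.62. MiR-15a thus exceeded miR-16a in all libraries except the serum of cow 3, and the ratio was higher in exosomes in 4 of 4 cows, without overlap. The means were 1.18 ± 0.329 and 2.51 ± 0.369 (SD, n = 4), and the log2 ratio was lower in sera, with a difference of -1.12.

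The ratio of miR-15b to miR-16b did not separate the sample types in that way. It was 0.0328, 0.0308, 0.0300 and 0.0327 in sera and 0.0590, 0.0355, 0.0300 and 0.0409 in exosomes. The sera lay within a narrow range, and the exosomes of cow 1 were farthest from it. The difference was -0.35 on the log2 scale, with overlap between the sample types, and -0.16 without the exosomes of cow 1.

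MiR-497 exceeded miR-195 in every library, by 5.19, 4.15, 4.41 and 6.92 times in sera and by 7.50, 10.4, 6 and 7.62 times in exosomes. The sample types overlapped, with a difference of -0.61 on the log2 scale, and the 10.4 in the exosomes of cow 2 rested on 5 reads of miR-195. Between the loci, miR-16b exceeded miR-16a by 2.98, 3.66, 2.22 and 3.64 times in sera. In exosomes it did so by 4.78, 6.06, 4.98 and 5.57 times, without overlap (-0.80 on the log2 scale). Reads can move between the names miR-16a and miR-16b, which makes this ratio uncertain. The same holds for the ratios of miR-15a to miR-16a and of miR-15b to miR-16b, which use the separate values of those names. Both ratios that separated the sample types have miR-16a as denominator, so they restate its difference. How often ratios of other miRNAs separate the sample types was not computed. The ratio of miR-15a to miR-15b was close in both sample types, at 11.9 ± 1.19 for sera and 11.7 ± 1.31 for exosomes (SD, n = 4), with a difference of 0.02 on the log2 scale.

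**Figure D5:**
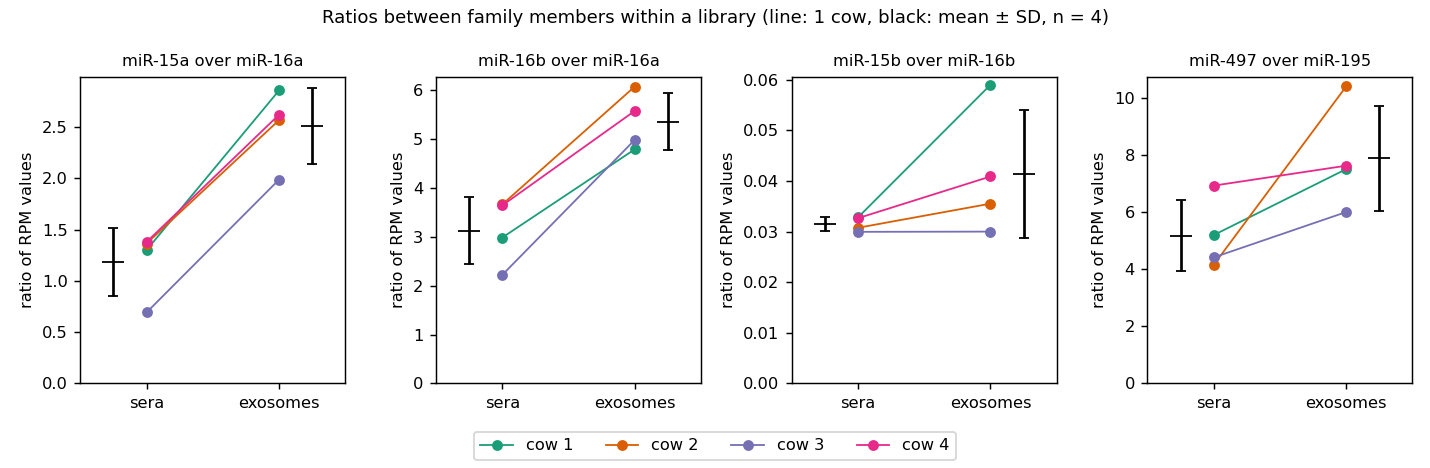
Panels plot the ratio of the RPM of 2 members in the sera and exosomes of each cow, with a line per cow and black bars for the mean ± SD (n = 4). The ratios of miR-15a to miR-16a (0.692 to 1.38 against 1.99 to 2.85) and of miR-16b to miR-16a separate the sample types. Each of these has miR-16a as denominator. The ratios of miR-15b to miR-16b and miR-497 to miR-195 overlap.

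The members also differed in how much they varied between cows. For miR-15a the coefficient of variation was 9.54% in sera and 8.06% in exosomes, the lowest of the family in both sample types, where counting error alone would give 1.95% and 4.10%. For miR-16b it was 15.8% and 16.6%, for miR-16a 33.9% and 13.5%, and for miR-497 36.3% and 30.4%. The spread of miR-16a in sera came mostly from cow 3, and that of miR-497 from cow 4. For miR-15b in exosomes (14.8% against 13.9% from counting) and miR-195 in both sample types (15.6% against 15.2% in sera, 36.6% against 37.7% in exosomes), counting error alone was about as large as the observed spread.

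Among the 127 other well-read miRNAs, those most like miR-16a over the 8 libraries were miR-24-3p (Pearson r 0.979), miR-361 (0.942), miR-17-5p (0.942), miR-26b (0.940) and miR-148b (0.930). MiR-16b was ranked 9 with r = 0.902, miR-15a 33 with 0.744, miR-15b 52 with 0.625 and miR-497 85 with 0.245. The 8 libraries fall into 2 sample types, and the libraries of a cow share their serum, so the values describe these 8 libraries and no more. For miR-16b the nearest were miR-16a (0.902), miR-93 (0.892), miR-148b (0.886), miR-106b (0.865) and miR-199b (0.850), with miR-15a ranked 9 (0.821). By these values the locus partner was not the nearest miRNA for either miR-16a or miR-16b. The difference between the sample types enters r. The miRNAs named as most like miR-16a had a log2 FC of 0.76 to 2.30 by limma, against 0.32 for miR-15a.

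MiR-103 and miR-107 have a seed shifted by 1 base from that of the family and share some of its targets. MiR-103 averaged 11563 ± 1468 RPM in sera against 6958 ± 1405 RPM in exosomes, and miR-107 averaged 11001 ± 1416 against 6503 ± 1221 RPM (SD, n = 4 for each). Their log2 FC were 0.75 and 0.77 with a limma FDR of 0.0337 and 0.0252, and the sample types did not overlap for either. These 2 miRNAs are themselves near-identical, so their values are not independent. Of the 5 miRNAs with a seed or locus next to the family, 4 were tested, 0 passed both limits in either direction, and the median log2 FC was 0.76. That median lies between the values of miR-103 and miR-107. The other tested miRNAs, miR-503-3p (0.48) and miR-424-3p (2.44), rested on few reads.

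Blood cell miRNAs were compared because the family is abundant in blood cells. The red cell miRNAs miR-486, miR-451, miR-144 and miR-92a took 24.0% of the miRNA reads in sera (20.7% to 29.6%) and 37.6% in exosomes (25.7% to 47.4%). Of these 4 miRNAs, miR-144 was called higher in sera by limma (log2 FC 1.10) and 0 higher in exosomes. The median log2 FC was -0.30. MiR-486 (log2 FC -0.73, with overlap) and miR-92a (-0.59, without overlap) were higher in exosomes but not called. MiR-451 was level, at -0.003. Each of the 4 had reads in every library. The 6 white cell and platelet miRNAs took 4.96% in sera (4.68% to 5.26%) and 4.51% in exosomes (4.15% to 5.29%), with a median log2 FC of 0.50 and 0 called. The 2 liver miRNAs, miR-122 and miR-192, took 4.82% (3.15% to 5.75%) and 3.73% (2.21% to 5.72%), with 0 called. Their median log2 FC of 1.11 lies between 0.42 for miR-192, which held most of these reads, and 1.81 for miR-122. The value of miR-122 had a standard error of 1.15 and rested on 12 reads in exosomes. The part of blood cell RNA in the values of the family was not tested.

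Both libraries of cow 1 stood apart by the muscle miRNA miR-133a, with 21760.8 RPM in serum and 25279 RPM in exosomes, where the lowest libraries had 171 and 156 RPM. Of the 6 muscle miRNAs 4 were tested and 0 called, with a median log2 FC of 0.40, and miR-206 was at 0 in every library. Without both libraries of any 1 cow, the log2 FC of miR-16a was 1.30 to 1.57 with a limma FDR of at most 0.0299, and that of miR-16b was 0.62 to 0.71. The share of the family was then 1.20 to 1.49 percentage points higher in sera, against 1.35 with all cows.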

How the data were processed

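Reads were filtered by chastity with CASAVA 1.8 (named in the submitters' processing notes), then trimmed by the authors and matched with sRNAbench to bovine miRBase miRNAs, 1 library at a time, and the authors deposited RPM per miRNA and library. All values were whole multiples of 1 read within 0.1 read (100%), so reads were recovered and used for edgeR, DESeq2 and counting intervals. Pairs of libraries of 1 sample type differed by more than counting noise (chi-square per degree of freedom 29.2 to 127).

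The members, the lists and the tests were chosen with earlier results of these data known. Named were the 7 members, the other products of their loci, the lists of blood cell, liver and muscle miRNAs, miR-103 and miR-107, and the 5 miRNAs most correlated with miR-16a and with miR-16b. Limma (lmFit and eBayes with a trend) was run on log2(RPM + 1) over 365 miRNAs without a block, as the study's methods name none. Sera had 264769 to 590162 reads, exosomes 60682 to 157710.

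Libraries of the same number came from the same cow. Over 128 miRNAs their deviations from the means of the sample types correlated with r of 0.740 to 0.860 within a cow. Between cows the highest r was 0.195. The mean between cows was -0.24, which is pushed below 0 by taking deviations from those means. The cow as a replicate block was therefore an alternative. Further alternatives were pseudocounts of 0.1 and 10, other filters, TMM, miR-486 left out of the total, miR-16a and miR-16b summed, edgeR, DESeq2, and each library left out. Leaving out each cow was added after seeing miR-133a in cow 1. Tests were run in R 4.3.3 with DESeq2 1.42.0, edgeR 4.0.16 and limma 3.58.1, and tables and plots were made in Python 3.11.15 with SciPy 1.17.1 and matplotlib 3.10.9. The nearest miRNA genes were taken from RefSeq positions on ARS-UCD2.0, which are not printed because the build can differ from the study's. No sequences were used here.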

Additional observations from a re-analysis of the deposited data

Results flagged for a closer look

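In 26 groups of 4 libraries (members, family share and ratios by sample type), the highest or lowest value was tested against the rest with Dixon's 95% limit, which chance passes in about 1 in 20 groups. Among them 3 values stood apart. MiR-16b in the exosomes of cow 1, at 9772 RPM, was below the other exosomes, and the serum of cow 1 was also the lowest of the sera. MiR-497 in the serum of cow 4, at 994 RPM, was above the other sera, and the exosomes of cow 4 were the highest of the exosomes. The ratio of miR-15a to miR-16a in the serum of cow 3, at 0.692, was below the other sera, and its exosomes had the lowest ratio of the exosomes. No cause of these values was tested.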

How the results depend on the processing

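MiR-16a was called higher in sera in all 23 alternatives that kept it as its own feature, with a log2 FC of 1.12 to 1.57 and an FDR of at most 0.0299, and with miR-16a and miR-16b summed 0 members were called. The log2 FC was reversed by DESeq2 for miR-15a (-0.0047), miR-15b (-0.0277) and miR-497 (-0.0565), none of them called, and its median over well-read miRNAs was then -0.02. The other alternatives kept the direction and the call of the members they tested (miR-195 and miR-424-5p were not tested where 10 reads in every library were required), with 0.29 to 0.75 for miR-16b and 0.33 to 3.23 for miR-424-5p. The share of the family was 1.35 percentage points higher in sera, 0.893 with TMM scaling, and 1.17 to 1.57 with a library or cow left out. Over all miRNAs, the 11 called higher in sera became 6 by edgeR with TMM, 6 by limma with TMM scaling, 6 without miR-486 in the total, 3 by DESeq2 and 29 by limma with the replicate block. Left-out libraries and cows gave 2 to 18, with 7 without the serum of cow 3, 18 without its exosomes, 5 without cow 3 and 2 without cow 4. The 5 called higher in exosomes became 8 by edgeR with TMM, 13 by DESeq2, 13 by edgeR with the replicate block, and 3 to 5 with a library or cow left out, with 3 without the serum of cow 2 or 4 or without either cow. The block changed no call of a member. The ratios kept their sign when a library was left out, from -1.23 to -0.88 for miR-15a to miR-16a, -0.88 to -0.64 for miR-16b to miR-16a, -0.48 to -0.16 for miR-15b to miR-16b and -0.76 to -0.47 for miR-497 to miR-195 on the log2 scale. Depth limits miR-424-5p in exosomes, where no library reached 3 reads. The cause of the changed counts was not tested.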
